A study of Drosophila melanogaster with 36 samples.

Results

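The comparison described here is between heads of Drosophila melanogaster of the wild-type strain Canton-S that were kept at 18°C and heads of the same strain kept at 25°C. The series labels 36 libraries of polyadenylated RNA, and 24 of them belong to this comparison, 12 at 18°C and 12 at 25°C. The flies of both groups lived in cycles of 12 h of light and 12 h of dark and were collected at the 6 time points ZT3, ZT7, ZT11, ZT15, ZT19 and ZT23, where Zeitgeber time (ZT) counts hours from lights on. The remaining 12 libraries came from flies kept at 29°C and are used only for a shared estimate of the spread and for values set beside the cold difference. Neither the sex nor the age of the flies is given in the labels, and no group carries a transgene. The deposited table held 18 columns, 1 for each temperature and time point, so that the 2 labelled libraries of a time point appeared as 1 column. The comparison therefore rested on 12 of the 18 columns, matched by time point, and the column that the table calls ZT19 is the zt18 of the labels. The 6 columns of a temperature differ in time of day and are no repeats of 1 condition, and the p-values below measure the spread between them after a common effect of the time of day was removed.

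Flies do not regulate their body heat, so every reaction in the head slows in the cold, and flies kept cool over days are known to change fuel use, membrane lipids, protein turnover and stress defence. The fly head holds the compound eyes and the brain, and also a cuticle capsule and a sheet of fat body, an organ that combines the roles of liver and fat. The proteasome degrades proteins marked with ubiquitin, glycolysis and the respiratory chain supply energy, and the circadian clock times transcription of its own genes through the factors Clk, cyc, per and tim.

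Values are normalised reads, the signal of the deposited table, which had been scaled between columns by its authors. Columns at 18°C held 736544 to 2408896 reads on genes (median 1656565) and those at 25°C held 1241553 to 2381042 (median 1673392), and any interval of a single column covers counting error only. The share of reads on mitochondrially encoded genes was 0.860 to 0.974% at 18°C and 1.21 to 1.41% at 25°C, without overlap. Head and eye markers were present in every column, with summed signals of 28954 to 34675 at 18°C and 34673 to 46663 at 25°C, and markers of testis summed to at most 3.72 normalised reads at 18°C and 2.88 at 25°C. The column for 25°C at ZT7 stood apart, with a summed signal of 6243 on midgut markers, where the remaining columns at 25°C had 18.2 to 27.9, and of 6957 on flight muscle markers, against 2904 to 3222. In the column for 25°C at ZT19 the fat body markers, mostly yolk protein genes, summed to 274531, against 117999 to 160388 in the others. Among the 29°C columns, which enter the shared spread, ZT19 had testis markers summing to 503 and midgut markers summing to 1731. The medians over all 29°C columns were 3.68 and 25.3. Some alternatives below leave out this column together with 25°C at ZT7. Library descriptions in the labels begin with the temperature and continue with a barcode that recurs at each temperature, so a library pool and the temperature cannot be told apart where pools were made by temperature.

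Of 8792 genes with enough reads for a test, 1178 differed between 18°C and 25°C in limma at an adjusted p (Benjamini-Hochberg) under 0.05, which is 13.4% of those tested. The 710 genes called higher at 18°C made up 8.08% and the 468 called lower made up 5.32%. These shares are the background against which the gene groups below are to be read. Reads in 1 column sufficed for a test, and that column could be at 29°C. The tested genes thus include some with hardly any reads in this comparison. Of 11 testis markers 8 were tested, although 7 of the 11 had no reads in its 12 columns. Such genes can hardly be called, which lowers the shares. Among the genes called higher, 554 were higher at all 6 time points and 332 had no overlap between the 2 sets of 6 columns. Of the genes called lower, 366 were lower at all 6 time points and 181 showed no overlap. Over all 8792 genes tested, called or not, 363 lay higher at 18°C without overlap and 204 lay lower. Changes were mostly small, with a median log2 change of 0.67 for genes called higher and -0.73 for genes called lower, and 159 and 102 of them passed a 2-fold change. The split between directions depended on the scaling of the columns. Scaled by library size alone, 450 genes were higher and 856 lower, since this scaling moved the median of all genes to -0.14, against -0.01 with the deposited scaling. Without the ZT19 columns of all temperatures, 684 genes were called, 428 higher and 256 lower at 18°C. With a filter on a mean of at least 10 reads a column, 1211 genes were called, 715 higher and 496 lower. The share of genes tested is not given for that filter.

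**Figure D1:**
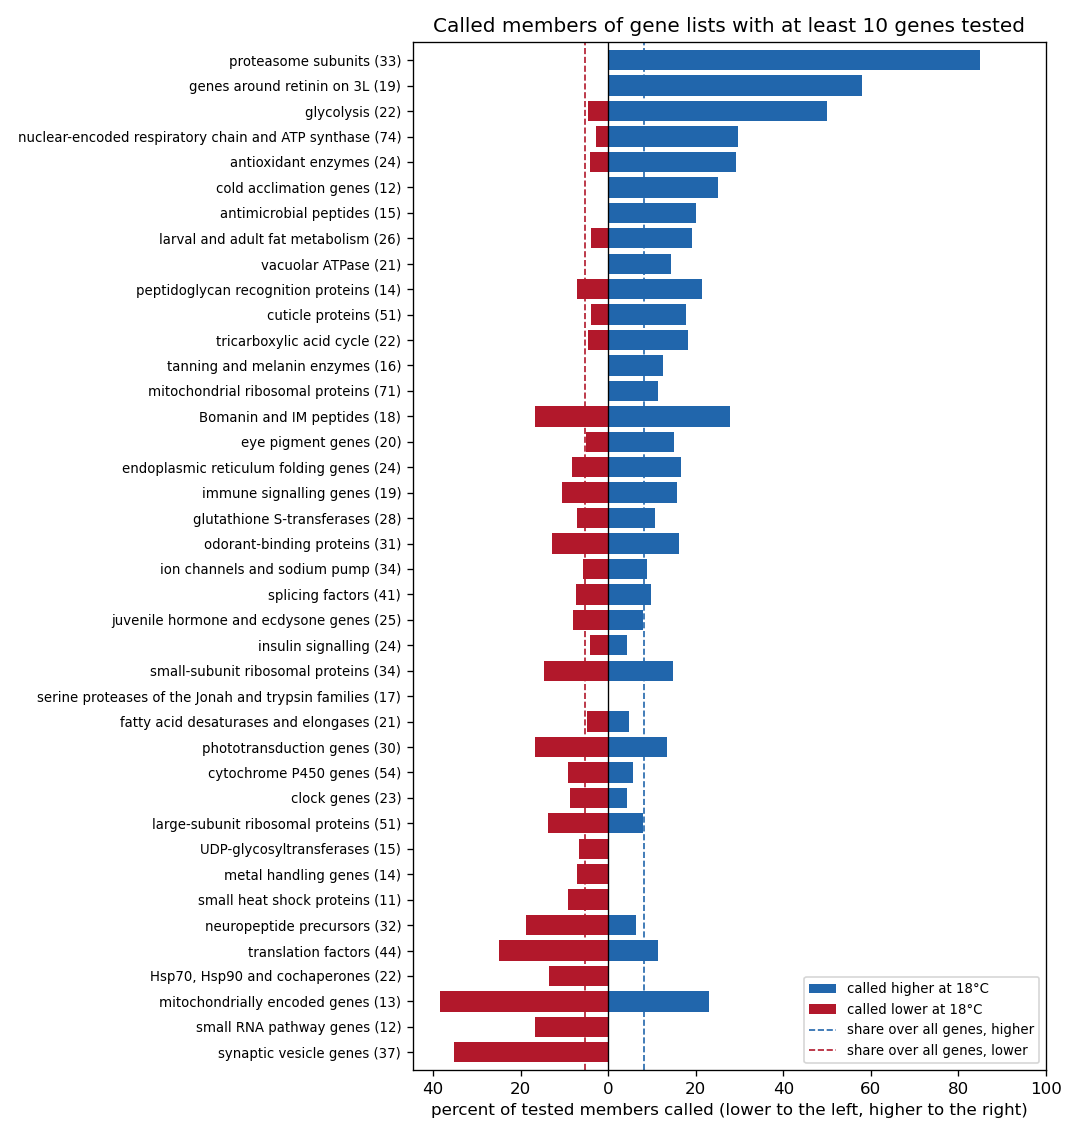
Share of the tested members of each gene list drawn that limma called higher (blue, to the right) or lower (red, to the left) at 18°C than at 25°C, with the number tested in parentheses and dashed lines at the shares over all genes, 8.08% and 5.32%. The shortest lists are not drawn, which leaves out storage and yolk proteins, the CCT chaperonin and the Turandot stress peptide genes. Proteasome subunits had the longest bar to the right, 28 of 33, and mitochondrially encoded genes, 5 of 13, and synaptic vesicle genes, 13 of 37, the longest to the left.

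Most genes of the proteasome were called higher at 18°C. Of 33 tested, 28 were called higher and none lower, all 33 had a positive log2 change, and their median change was 0.62, against -0.01 over all genes. Their summed signal lay between 5958 and 8318 normalised reads at 18°C (median 7075) and between 3882 and 5083 at 25°C (median 4576), so that each column at 18°C exceeded each column at 25°C. At 29°C the sum was 4167 to 4632.

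The increase covered each module of the particle. In the barrel-shaped 20S core, which holds the proteolytic sites, 6 of 7 alpha subunits and 7 of 7 beta subunits were called higher. In the 19S cap, which recognises and unfolds ubiquitinated proteins, all 6 Rpt ATPases and 8 of 12 Rpn subunits were called higher. Rpn2, a scaffold subunit of the cap, had 165 to 269 (median 225) normalised reads at 18°C and 87.5 to 134 (median 107) at 25°C, without overlap, or 1.03 ± 0.12 on the log2 scale (SE of the fit, adjusted p = 2.39e-06 by limma). The same separation was seen for Rpn11, the subunit that removes ubiquitin chains, with 187 to 299 (median 238) at 18°C and 83.6 to 148 (median 132) at 25°C, and for the core subunit Prosbeta3, with 281 to 373 (median 314) and 147 to 214 (median 157) in the same order. Rpn9 differed by 0.94 on the log2 scale (limma adjusted p = 0.000177). The 5 subunits not called were Prosalpha2, Rpn5, Rpn6, Rpn8 and Rpn12, and among them Rpn12 had the smallest log2 change, 0.12 (SE 0.14). Of the 16 paralogs in the list, which are named for the subunit they resemble, 15 had too few reads to be tested, and Prosalpha1R was called higher. The median log2 change was 0.62 over the light phase and 0.64 over the dark phase. Without the ZT19 columns 16 subunits were called higher and none lower, and leaving out any 1 of the 12 columns left 24 to 28.

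**Figure D2:**
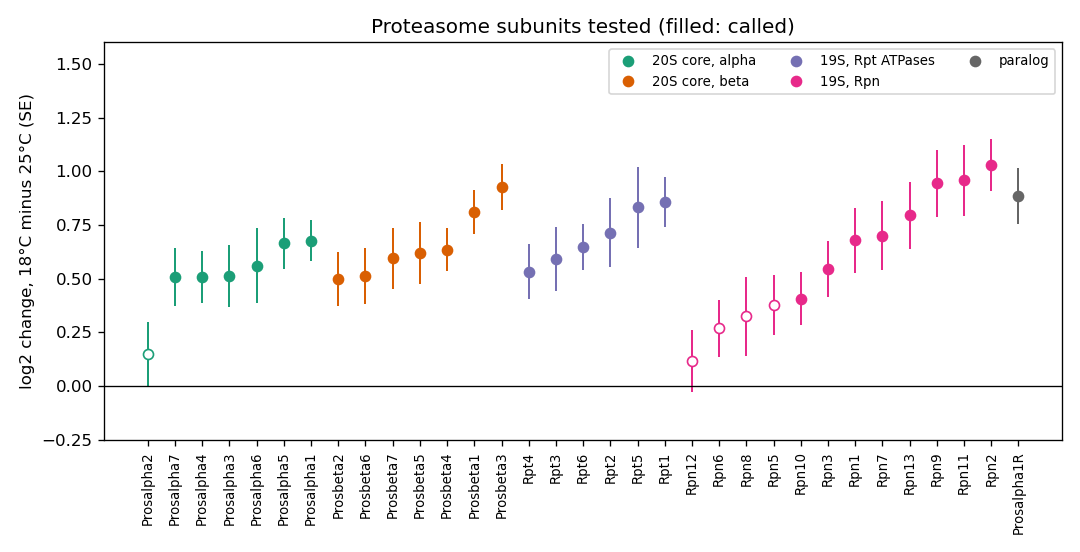
Log2 change between 18°C and 25°C of the 33 proteasome genes tested, grouped by module, with bars for the SE of the fit and filled points for genes called. All points lie above 0, from 0.12 for Rpn12 to 1.03 for Rpn2.

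Many enzymes of sugar use were also called higher at 18°C. In the list for glycolysis, glycogen and trehalose, 11 of 22 genes tested were called higher and 1 lower, with a median log2 change of 0.45, and the summed signal was 19766 to 22544 normalised reads at 18°C and 15102 to 17699 at 25°C, without overlap. Hex-C, a hexokinase, had 320.2 to 480.3 (median 429) normalised reads at 18°C and 189 to 242 (median 206) at 25°C. Pgk, the phosphoglycerate kinase, had 1048 to 1143 (median 1080.2) at 18°C and 569 to 723 (median 647) at 25°C, and its 6 columns at 18°C were closely spaced. These correspond to log2 changes of 0.98 (limma adjusted p = 7.11e-06) and 0.75 (limma adjusted p = 9.59e-07). Pgm1, which links glycogen to glycolysis, and Tpi, the triose phosphate isomerase, changed by 0.69 and 0.64, each with all 18°C columns above all 25°C columns. Glycogen synthase and glycogen phosphorylase, Glys and Glyp, which build and break down glycogen, were both called higher, at 0.50 and 0.44. Tps1, which makes trehalose, the main blood sugar of insects, changed by 0.45 (limma adjusted p = 0.00529), and was not called without the 25°C ZT7 and 29°C ZT19 columns or when only 12 columns were fitted. The exception was Ald1, an aldolase, with a log2 change of -0.34 (limma adjusted p = 0.0166). At 29°C, measured against the same 25°C columns, the glycolysis list had a median change of 0.04, and all genes tested had 0.04.

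The tricarboxylic acid cycle showed no common direction. Its list had 4 of 22 genes called higher and 1 lower, with a median of 0.04, and 3 higher and 5 lower with library size scaling. The genes called higher included Mdh1, a malate dehydrogenase, with 2235 to 2859.5 (median 2498) normalised reads at 18°C and 1467 to 1952 (median 1625) at 25°C, and Idh, an isocitrate dehydrogenase, with a log2 change of 0.57. Fum1, the fumarase, was higher by 0.53, although its gene overlaps another, ND-ASHI, which was also called higher, and the use of strand is not given in the sources used here. The gene called lower was mAcon1, the mitochondrial aconitase, with 409 to 460.02 (median 425) normalised reads at 18°C and 618 to 823 (median 658) at 25°C, or -0.66 ± 0.11 on the log2 scale (SE of the fit, adjusted p = 0.000127 by limma).

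Respiratory chain genes are encoded by the nuclear and the mitochondrial genome, and the lists were read apart, with no test between them. Of 74 nuclear-encoded subunits tested, 22 were called higher and 2 lower, with a median log2 change of 0.22. The ATP synthase had 7 of 12 genes called higher and complex IV, the cytochrome c oxidase, 6 of 13. Complex I, the NADH dehydrogenase, had 6 of 34 called higher and 1 lower, and complex II had none called among 5. ATPsynC, the ring subunit of the ATP synthase, had 3133 to 3665 (median 3463) normalised reads at 18°C and 1972 to 2727 (median 2246) at 25°C, without overlap. ATPsynO changed by 0.51 (limma adjusted p = 0.000489). Cyt-c-p, the cytochrome c of the soma, moved the other way, with 343 to 435 (median 398) at 18°C and 566 to 798 (median 601) at 25°C. The number called higher among nuclear-encoded subunits was 11, with 5 lower, when columns were scaled by library size, and 11, with 2 lower, when they were fitted without ZT19, and it was 14 without 1 of the columns for 18°C at ZT11, 25°C at ZT15 or 25°C at ZT23.

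The 13 mitochondrially encoded genes had 3 called higher and 5 lower, and their sum was 14819 to 16521 normalised reads at 18°C and 18350 to 22593 at 25°C, without overlap. COX1 and COX2, subunits of cytochrome c oxidase, carried most of that difference by their medians. COX1 had 3268 to 3712 (median 3573) normalised reads at 18°C and 5048 to 5917 (median 5737) at 25°C, or -0.66 ± 0.08 on the log2 scale (SE of the fit, adjusted p = 1.9e-06 by limma), and COX2 changed by -0.64 (± 0.08 SE, adjusted p = 3.84e-06 by limma). CYTB and ATP8 were lower as well, at -0.63 and -0.64, and ND4 at -0.27. ND2, ND3 and ND5, subunits of complex I, were called higher, at 0.52, 0.67 and 0.74. ND5 had 0.895 to 0.990 times the signal of ND3 in every column of the comparison, and whether the entries share reads was not tested.

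**Figure D3:**
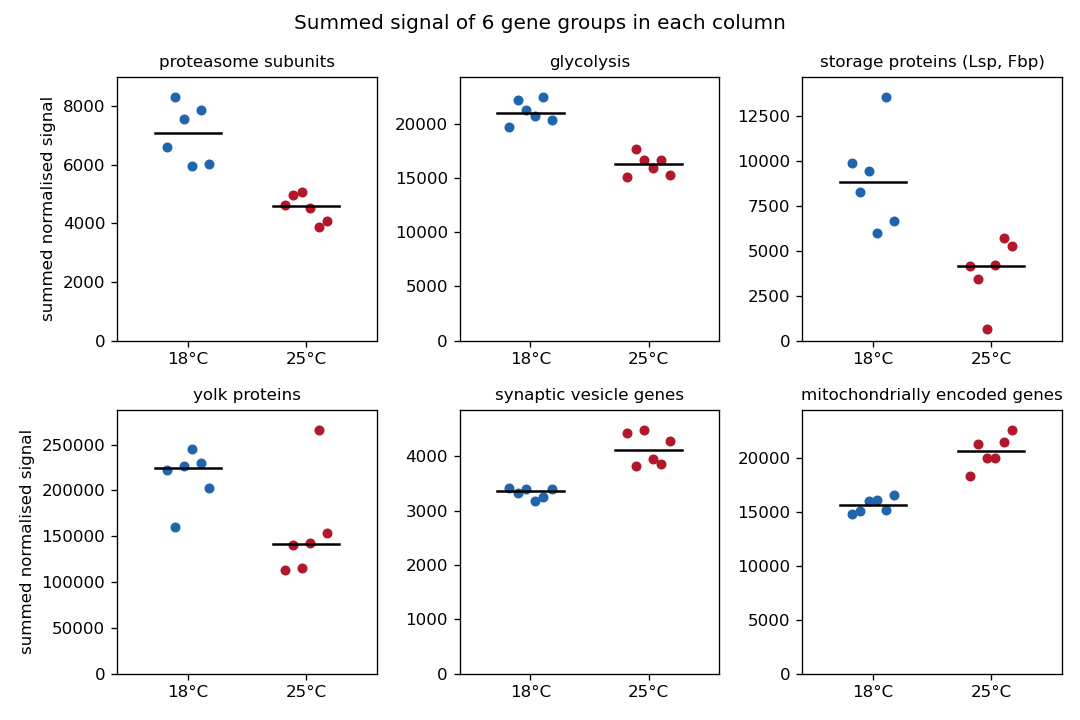
Summed normalised signal of 6 gene groups in each of the 6 columns for 18°C (blue) and for 25°C (red), with black lines at the medians and axes that start at 0. The 2 temperatures do not overlap for proteasome subunits, glycolysis, storage proteins, synaptic vesicle genes and mitochondrially encoded genes, whereas 1 column at 25°C is the highest of all for the yolk proteins.

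Most genes for storage and yolk proteins, which the fat body secretes, were called higher at 18°C. The list of storage and yolk proteins had 7 of 9 genes called higher, none lower and a median log2 change of 1.44. The storage proteins Lsp1alpha, Lsp1beta, Lsp1gamma and Lsp2 are hexamerins, amino acid stores that are abundant in larvae, and Fbp1 is the receptor that takes them up in larvae. Lsp2, the only abundant one in these heads, had 5919 to 13344 (median 8565) normalised reads at 18°C and 626 to 5272 (median 4044) at 25°C, or 1.44 ± 0.30 on the log2 scale (SE of the fit, adjusted p = 0.00208 by limma). Its lowest column, at 25°C and ZT11, lay far under the other columns of that temperature. Lsp1alpha, Fbp1 and Fbp2 had few reads, with 5.85 to 52.98 (median 24.6), 6.82 to 30.7 (median 11.9) and 13.6 to 73.4 (median 26.01) normalised reads at 18°C and 0 to 3.83 (median 1.597), 0.848 to 4.55 (median 1.11) and 0 to 4.75 (median 2.40) at 25°C. Their sets of columns did not overlap either, although 4 of the 6 columns at 25°C, and 5 for Fbp2, held 3 reads or fewer. Lsp1beta had 22.4 to 128 (median 73.8) at 18°C and 27.6 to 412 (median 97.3) at 25°C and was not called. Fewer cells of a type and less RNA per cell cannot be told apart in these bulk samples. The count of 7 became 3 when only the 12 columns were fitted and 3 in DESeq2. Lsp1alpha, Fbp1 and Fbp2 had their highest columns at 18°C, and reads in 1 column sufficed for a test. Their selection therefore favours higher values at 18°C. With a filter on a mean of at least 10 reads a column, 6 genes of the list were tested. Of these 4 were called higher and none lower, with a median log2 change of 0.62.

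The yolk protein genes, which are expressed in the fat body of females, were the most abundant in the table. Yp2 had 66755 to 100498 (median 90983) normalised reads at 18°C and 44133 to 107389 (median 55144) at 25°C, and Yp3 had 45063 to 73626 (median 66480.1) at 18°C and 29149 to 76898 (median 37447) at 25°C. Both were called higher, at 0.58 (limma adjusted p = 0.00466) and 0.65 (limma adjusted p = 0.00564), whereas Yp1 had a log2 change of 0.32 (limma adjusted p = 0.097). The highest column of all 3 genes was 25°C at ZT19, so that the temperatures overlapped, and at the other 5 time points Yp2 and Yp3 were higher at 18°C. The ratio of males to females in each library was not analysed here.

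Of 26 genes of fat metabolism tested, 5 were called higher and 1 lower, with a median of 0.19. With library size scaling 2 were called higher and 4 lower, with a median of 0.06, and without the ZT19 columns 2 were called higher and none lower. AcCoAS, which makes acetyl-CoA from acetate, had 868 to 974 (median 907) normalised reads at 18°C and 438 to 659 (median 606) at 25°C, and ACC, the acetyl-CoA carboxylase that starts fatty acid synthesis, had 309 to 449 (median 386) at 18°C and 156.1 to 286 (median 254) at 25°C. Neither gene overlapped between temperatures. Their log2 changes were 0.65 (limma adjusted p = 9.48e-06) and 0.69 (limma adjusted p = 0.000229), and AcCoAS was also higher at 29°C than at 25°C, by 0.72. Lsd-2, a perilipin that coats lipid droplets, was lower at 18°C, at -0.54, while bmm, the main triglyceride lipase, was higher at 0.57. Among desaturases and elongases, which set the fluidity of membranes, only 1 of 21 was called higher, the desaturase-related CG9747 with a log2 change of 0.72, and 1 lower, CG17928 at -0.90.

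Most of the cuticle genes called were higher at 18°C. Among named cuticle proteins 9 of 51 tested were called higher and 2 lower, with a median log2 change of 0.55, and 77 others in the list had too few reads. The list held Crys, a protein of the corneal lens, with 124 to 294 (median 240.3) normalised reads at 18°C and 40.5 to 133 (median 60.9) at 25°C, a change of 1.55 (limma adjusted p = 0.00218). Cpr97Eb, Cpr60D and Cpr100A, proteins with the chitin-binding domain of insect cuticles, changed by 1.23, 1.16 and 1.11. None of these 4 genes was called without the ZT19 columns, nor without the 25°C ZT7 and 29°C ZT19 columns. Of the pigment and tanning enzymes, 2 of 16 were called, yellow-e with 119 to 177 (median 152) at 18°C and 49.2 to 114 (median 87.5) at 25°C, and yellow-c with 233 to 425 (median 307) at 18°C and 165 to 231 (median 181) at 25°C. Members of the yellow family take part in pigmentation of the cuticle.

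A cluster of small genes around retinin on chromosome arm 3L held larger changes. Of 38 genes in the list, 19 had enough reads, and 11 of those were called higher and none lower, with a median log2 change of 1.59. CG13071 (3L, 16254853 to 16256220) had 447 to 1291 (median 897) normalised reads at 18°C and 136 to 333 (median 195) at 25°C, or 2.02 ± 0.21 on the log2 scale (SE of the fit, adjusted p = 8.08e-07 by limma). CG13065, CG13063 and CG13068 changed by 3.23, 3.14 and 2.11, with medians of 164, 106 and 18.6 normalised reads at 18°C and of 15.8, 12.4 and 3.80 at 25°C. The cluster's most abundant gene, retinin, which encodes a lens protein, had 15195 to 17619.5 (median 16386) at 18°C and 14814 to 22651 (median 20369.7) at 25°C and was not called, and so the summed signal of the list overlapped, with medians of 32370 at 18°C and 32429 at 25°C. The number called higher was 6 without the ZT19 columns, 6 without the 25°C ZT7 column and 6 without the 18°C ZT19 and ZT23 columns.

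Odorant-binding proteins, small secreted carriers of odorants and other hydrophobic ligands, split by gene. Of 31 tested, 5 were called higher and 4 lower, with a median log2 change of -0.18. The abundant gene with the widest separation was Obp99a (3R, 25497382 to 25498057), with 1225 to 3436 (median 1985) normalised reads at 18°C and 265 to 1163 (median 362) at 25°C, or 2.13 ± 0.17 on the log2 scale (SE of the fit, adjusted p = 1.59e-08 by limma). Its highest column at 25°C was ZT19, and it was still below the lowest at 18°C. Obp44a had 5108 to 7638 (median 5744) at 18°C and 2701 to 3214 (median 3006) at 25°C, and Obp99c had 7094 to 8534 (median 7773) at 18°C and 4214 to 5718 (median 4709.8) at 25°C, again without overlap. At 29°C, measured against the same 25°C columns, Obp99a and Obp99c had log2 changes of 0.02 and -0.02, which were not called, and Obp44a was called higher at 0.39. Obp28a changed by 1.67 (limma adjusted p = 0.00796) with 20.47 to 74.1 (median 53.2) normalised reads at 18°C and 3.41 to 38.3 (median 13.1) at 25°C, and was not called without the 25°C ZT7 column. Obp19b was lower, with 38.5 to 64.5 (median 48.5) at 18°C and 50.003 to 128 (median 101.4) at 25°C, a log2 change of -0.89 (limma adjusted p = 0.000142), and it was called higher at 29°C by 1.35. The remaining genes called lower were Obp19d, Obp56e and Obp56h.

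**Figure D4:**
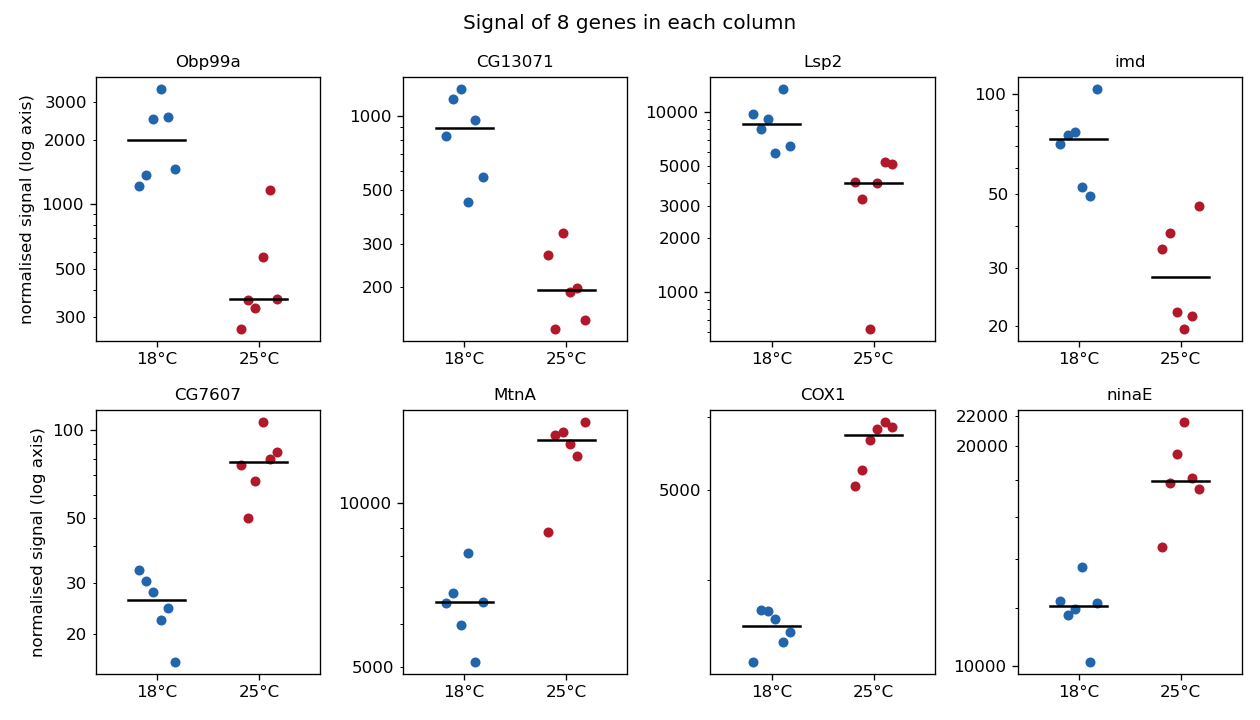
Normalised signal of 8 genes in each of the 6 columns for 18°C (blue) and for 25°C (red) on log axes that differ between panels, with black lines at the medians. None of the 8 genes overlapped between the temperatures. Obp99a, CG13071, Lsp2 and imd were higher at 18°C, and CG7607, MtnA, COX1 and ninaE were lower.

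Genes of synaptic transmission were lower at 18°C where they were called. Of 37 genes for synaptic vesicle release and neurotransmitter handling, none was called higher and 13 were called lower, with a median log2 change of -0.25. Their summed signal was 3183 to 3415 normalised reads at 18°C and 3825 to 4489 at 25°C, without overlap, and 2633 to 3142 at 29°C. At 29°C, against the same 25°C columns, the median log2 change was -0.44. Gad1, which makes the inhibitory transmitter GABA, had 97.5 to 173 (median 118) normalised reads at 18°C and 182 to 226 (median 199.9) at 25°C, a change of -0.73 (± 0.13 SE, adjusted p = 0.000498 by limma). EndoA, the endophilin of vesicle recycling, had 78.9 to 98.1 (median 84.1) at 18°C and 115 to 176 (median 128) at 25°C. Snap25, a protein of the SNARE complex that fuses vesicles, had 272 to 348 (median 315) at 18°C and 373 to 487 (median 443) at 25°C, and comt, an ATPase that takes this complex apart, had 63.96 to 92.9 (median 69.1) and 100.1 to 133 (median 109.97) in the same order. None of these 4 genes overlapped between temperatures. Nsf2, a relative of comt, and Syngr, a vesicle protein, changed by -2.02 and -0.73, but 5 of 6 columns at 18°C had no more than 3 reads on Nsf2. Genes for the transmitters acetylcholine and glutamate, ChAT and VGlut, were not called, with log2 changes of 0.24 and -0.52. The number called lower was 6 without the ZT19 columns, 8 without the 18°C ZT23 column, and 7 without the 25°C ZT3 or the 25°C ZT23 column. The summed signal of 5 neuronal markers was 173 to 247 at 18°C and 161 to 322 at 25°C, and that of 4 glial markers was 288 to 421 and 299 to 361 in the same order. The neuronal markers were elav, nSyb, Syt1, brp and ChAT. ChAT is also named among the transmitter genes above, so their sum is no fully independent measure of neuron content. The part of neurons and glia in the result was not tested.

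Neuropeptide genes had 2 of 32 called higher and 6 lower, with a median of -0.27. The summed signal of the list was 31753 to 38752 normalised reads at 18°C and 29263 to 34273 at 25°C, with overlap. Capa, the precursor of peptides that act on water balance, had 6.91 to 22.4 (median 18.7) normalised reads at 18°C and 25.9 to 63.3 (median 38.9) at 25°C, without overlap, a log2 change of -1.20 (limma adjusted p = 0.00042). The peptide gene CCHa2 moved the other way, with 63.4 to 84.1 (median 69.1) at 18°C and 23.9 to 51.6 (median 33.4) at 25°C, a change of 0.99 (limma adjusted p = 0.000902). AstC, NPF, Dsk and Dh44 were called lower, at -0.92, -0.82, -0.78 and -0.76. The insulin-like peptides made by the same brain cells differed in direction. Ilp5 had 91.2 to 165 (median 117) normalised reads at 18°C and 46.97 to 97.5 (median 61.3) at 25°C, and Ilp2 had 121 to 202 (median 149.6) at 18°C and 167 to 256 (median 221) at 25°C. Ilp5 was called higher (0.84, limma adjusted p = 0.00244) and Ilp2 lower (-0.53, limma adjusted p = 0.00192), while Ilp3 had a change of -0.44 and was not called. Without the ZT19 columns, or without the 25°C ZT7 and 29°C ZT19 columns, 2 neuropeptide genes were called lower.

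In the eye, the gene of the main visual pigment was lower at 18°C. The opsin gene ninaE, which encodes the rhodopsin of the outer photoreceptors, had 10138 to 13684 (median 12089.8) normalised reads at 18°C and 14560.2 to 21597 (median 17955) at 25°C, without overlap, or -0.59 ± 0.10 on the log2 scale (SE of the fit, adjusted p = 0.000275 by limma). The phototransduction list had 4 of 30 genes called higher and 5 lower, with a median of -0.18, and with library size scaling it had none higher and 11 lower. Rh3, an opsin of the inner photoreceptors, changed by -0.28, the channel gene trpl by -0.40 and the protein kinase C gene inaC by -0.49, all with overlapping columns. The scaffold gene inaD was higher, with 625 to 694 (median 661) at 18°C and 400.4 to 591 (median 499) at 25°C. Among eye pigment genes 3 of 20 were called higher and 1 lower. The drosopterin enzyme gene se had 439 to 1093 (median 839.9) normalised reads at 18°C and 209 to 514 (median 415) at 25°C and was not called without the 25°C ZT7 column. Rab32, which directs traffic to pigment granules, changed by 0.58 (limma adjusted p = 0.000322) and pr, which makes a precursor of the red pigments, by 0.57.

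Immune genes were mixed. Of 15 antimicrobial peptide genes, 3 were called higher and none lower, with a median log2 change of 0.84, and none was called without the ZT19 columns. Drs, the antifungal drosomycin, had 749.8 to 1217 (median 919.6) normalised reads at 18°C and 372 to 664 (median 531) at 25°C, without overlap (0.84, limma adjusted p = 0.0177). CecC, a cecropin, varied widely among the columns at 18°C, with 11.2 to 193 (median 38.1) normalised reads, against 3.83 to 25.4 (median 9.72) at 25°C. The Bomanins and related short peptides, targets of the Toll pathway, had 5 of 18 called higher and 3 lower, but 2 higher and 7 lower with library size scaling, 2 and 2 with only the 12 columns, and 1 and 1 without the 25°C ZT7 and 29°C ZT19 columns. The Bomanin genes BomT2 and BomS6, which lie close together on 2R, were lower, with 393 to 597 (median 496) and 3492 to 5759 (median 4329) normalised reads at 18°C and 635 to 843 (median 756) and 4745 to 7899 (median 6233) at 25°C. BaraA2, which encodes a precursor of several such peptides, was higher at 0.63 (limma adjusted p = 0.000235). Among the signalling genes, imd, the adaptor of the Imd pathway, had 49.4 to 104 (median 73.3) normalised reads at 18°C and 19.7 to 46.01 (median 28.1) at 25°C, or 1.24 ± 0.21 on the log2 scale (SE of the fit, adjusted p = 0.000165 by limma). One of its ends overlaps GstE9, a glutathione S-transferase gene that was also called higher, at 0.85, so that reads of the 2 genes could not be told apart without strand. The Toll receptor gene Tl and the Toll pathway factor gene Dif were lower, at -0.90 and -1.91, and for Dif 3 of 6 columns at 18°C had no more than 3 reads. The call of Dif was lost in 11 of the alternatives, edgeR among them, and that of Tl in 4. GNBP-like3, a secreted protein related to pathogen recognition, was lower at 18°C, with 31.4 to 131 (median 58.2) normalised reads against 123 to 219 (median 168) at 25°C (-1.42, limma adjusted p = 1.94e-05), and it was called higher at 29°C by 1.15.

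Stress genes were read by family. The gene smp-30 is known from earlier work in flies for its response to cold acclimation, and regucalcin is its paralog, and both encode proteins related to calcium-binding regucalcin of mammals. Here regucalcin had 1689 to 2595 (median 1960.2) normalised reads at 18°C and 914 to 1377 (median 1099) at 25°C, without overlap (0.85, limma adjusted p = 1.25e-06), and smp-30 changed by 0.83 (limma adjusted p = 0.00386). regucalcin was also higher at 29°C than at the same 25°C columns, by 0.61. The list of cold acclimation genes had 3 of 12 called higher and none lower, with a median log2 change of 0.15. Of its 12 genes, 5 had a negative change. At 29°C, against the same 25°C columns, the list had a median log2 change of 0.39, and all genes tested had 0.04. In the list of 22 genes for Hsp70, Hsp90 and their partners none was called higher and 3 were called lower. Hsc70-4, the constitutive cytosolic member of the Hsp70 family, had 1291 to 1699.8 (median 1529) normalised reads at 18°C and 1978 to 2584 (median 2324) at 25°C, or -0.60 ± 0.09 on the log2 scale (SE of the fit, adjusted p = 8.47e-05 by limma), and its partner Droj2 changed by -0.44. The largest change in this list was that of the heat-inducible Hsp70Ab, at -1.68 (limma adjusted p = 0.0172), with 0 to 2.79 (median 1.68) normalised reads at 18°C and 1.70 to 13.4 (median 7.66) at 25°C. All 6 columns at 18°C had no more than 3 reads on it, near-identical Hsp70 copies make its reads uncertain, and it was not called without the ZT19 columns. Of the genes for folding in the endoplasmic reticulum, crc, the fly ATF4 transcription factor, had 719 to 869 (median 796) at 18°C and 1034 to 1433 (median 1250.5) at 25°C (-0.64, limma adjusted p = 9.2e-06), and it was called higher at 29°C by 0.70. The chaperone gene Calr was lower at -0.51 and the translocon gene Sec61gamma higher at 0.79. The stress peptide genes TotC and TotA had log2 changes of 1.04 and 0.83, with columns that overlapped.

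Among antioxidant enzymes 7 of 24 were called higher and 1 lower, with a median of 0.23. The glutathione peroxidase Gtpx had 829 to 1010.0 (median 901) normalised reads at 18°C and 448 to 559 (median 499) at 25°C, without overlap (0.86, limma adjusted p = 5.91e-07), and the peroxiredoxin Prx6b changed by 1.13. Superoxide dismutases encoded by Sod2 and Sod3 were called higher, at 0.41 and 0.64, and the catalase gene Cat was lower at -0.35. With library size scaling 4 of these genes were called higher and 4 lower. MtnA, a metallothionein that binds copper and other metals, had 5106 to 8077 (median 6566) normalised reads at 18°C and 8838 to 14092 (median 13090.0) at 25°C, or -0.93 ± 0.11 on the log2 scale (SE of the fit, adjusted p = 1.65e-06 by limma). At 29°C it was called higher than at 25°C, by 1.46, with a median of 34306. Of the detoxification families, cytochrome P450 genes had 3 of 54 called higher and 5 lower, glutathione S-transferases 3 of 28 higher and 2 lower (2 and 3 with library size scaling), and UDP-glycosyltransferases none of 15 higher and 1 lower. The P450 gene Cyp313a1 had 87.5 to 148 (median 121) at 18°C and 186 to 289 (median 228) at 25°C, without overlap.

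Translation genes did not share a direction. Of 44 translation factors 5 were called higher and 11 lower, of 51 proteins of the large ribosomal subunit 4 higher and 7 lower, and of 34 of the small subunit 5 higher and 5 lower, with medians of -0.04, -0.01 and -0.07. With library size scaling, which moves all genes down, 19 and 17 ribosomal protein genes of the large and the small subunit were called lower. The initiation factor gene eIF3m had 223 to 296 (median 257) normalised reads at 18°C and 392 to 514 (median 459.6) at 25°C, without overlap (-0.83, limma adjusted p = 8.68e-07), and eEF1alpha1, the main elongation factor, had 6144 to 7649 (median 6568) at 18°C and 7876 to 10156 (median 9700.4) at 25°C. eIF6, a factor of large subunit assembly, was higher at 0.78. RpL38 was lower, with 2940.3 to 3796 (median 3232) at 18°C and 3944 to 5165 (median 4703) at 25°C, and RpS25 higher, with 7034 to 8899.8 (median 7372) at 18°C and 5196 to 6624 (median 5566) at 25°C. Proteins of the mitochondrial ribosome had 8 of 71 genes called higher and none lower, with a median of 0.22, but 2 higher and 3 lower with library size scaling, with a median of 0.09, and 3 higher and 1 lower without the ZT19 columns. Among splicing factors 4 of 41 were called higher and 3 lower, but 1 higher and 6 lower with library size scaling. The RNA-binding protein gene glo had 15.7 to 28.4 (median 20.6) normalised reads at 18°C and 35.97 to 73.9 (median 56.2) at 25°C, without overlap (-1.31, limma adjusted p = 4.97e-05), and SmE, a core protein of the spliceosome, was higher at 0.73.

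Several lists held few calls, or shares near those over all genes. The CCT chaperonin, which folds actin and tubulin, had 2 of 8 genes called higher, CCT1 at 0.75 and CCT8 at 0.51. The call of CCT8 (limma adjusted p = 0.0425) was lost in 16 of the alternatives, among them both other scalings, and that of CCT1 in none. Among small heat shock proteins 1 of 11 was called lower, CG4461 at -0.78. The proton pump of vacuoles had 3 of 21 called higher and none lower, and 5 lower with library size scaling. Of 34 ion channel and sodium pump genes 3 were called higher and 2 lower. The pump's beta subunits nrv2 and nrv3 were higher, at 0.35 and 0.50, and the alpha subunit Atpalpha lower at -0.29, but nrv3 (limma adjusted p = 0.0341) was not called in 15 of the alternatives, edgeR and DESeq2 among them, and with library size scaling this list had 1 gene higher and 3 lower. Of 25 genes linked to juvenile hormone and ecdysone, 2 were called higher and 2 lower, among them the ecdysone-induced factor br at 2.29 and the nuclear receptor Eip75B at -0.79. The call of Eip75B was lost in 13 of the alternatives. Small RNA pathway genes had 2 of 12 called lower, r2d2, a partner of Dicer, at -1.04 and Rm62 at -0.47. Insulin signalling had 1 of 24 called higher and 1 lower, the Ilp5 and Ilp2 genes named above. Digestive proteases of the Jonah and trypsin families had none of 17 called, with a median log2 change of -1.10 that became 0.06 without the 25°C ZT7 and 29°C ZT19 columns, and edgeR called 8 lower. One of them, Jon65Aiii, had 1996 normalised reads at 25°C and ZT7 and at most 2.24 in any other column at 18°C or 25°C.

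Clock genes were compared for their level over the day. Of 23 clock and clock-related genes tested, 1 was called higher and 2 lower. The entry called higher was tim-sc, a short tim transcript with its own 3' end, with 11.8 to 26.95 (median 22.4) normalised reads at 18°C and 1.14 to 8.29 (median 3.98) at 25°C, where 3 of the 6 columns held 3 reads or fewer. The entries called lower were Clk, the activator of the loop, and kay, a transcription factor of the Fos family. Clk had 1.95 to 15.4 (median 2.52) normalised reads at 18°C and 5.43 to 29.5 (median 17.5) at 25°C, and it was lower at each of the 6 time points, although 4 of 6 columns at 18°C had no more than 3 reads. At 18°C its highest columns were ZT3, with 15.4, and ZT23, with 9.21, and at 25°C ZT3 was the highest, with 29.5, and ZT15 the lowest, with 5.43. The Clk gene overlaps another, and the use of strand is not given. kay had 22.4 to 55.9 (median 46.3) at 18°C and 47.9 to 83.1 (median 76.6) at 25°C (-0.84, limma adjusted p = 0.0059).

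For the genes of the negative limb, which repress Clk and cyc, the values were read by time point. per had 26.1, 33.4 and 35.3 normalised reads at ZT3, ZT7 and ZT11 at 18°C, against 10.2, 17.8 and 17.5 at 25°C. At ZT15, ZT19 and ZT23 it had 28.3, 13.5 and 4.61 at 18°C, against 29.9, 8.87 and 2.88 at 25°C. These values were above those at 25°C at every time point but ZT15. For vri, a repressor of Clk, ZT3 gave 49.7 at 18°C and 18.2 at 25°C, and ZT19 gave 26.9 at 18°C and 63.3 at 25°C. tim had 109.7 at ZT7 at 18°C against 59.3 at 25°C, and 89.8 at ZT19 at 18°C against 171 at 25°C. Averaged over the day none of per, tim and vri was called, with log2 changes of 0.69, -0.21 and -0.22 (limma adjusted p = 0.168, 0.554 and 0.656), nor were cyc, Pdp1, cwo and cry, at 0.11, 0.07, -0.15 and -0.42. The dark minus light difference in the cold change was -0.70, -0.90 and -1.24 for per, tim and vri, with adjusted p-values of 0.866, 0.668 and 0.571 over all genes in limma.

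**Figure D5:**
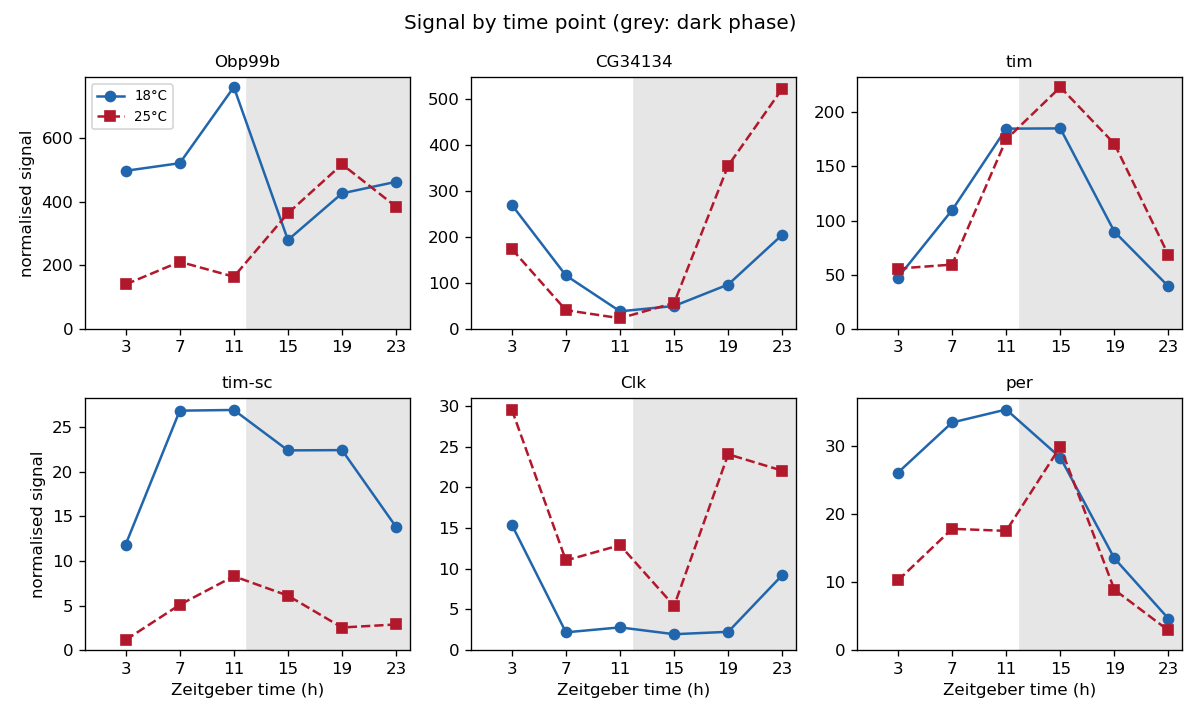
Normalised signal of 6 genes at each time point at 18°C (blue, solid) and at 25°C (red, dashed), with the dark phase in grey and axes that start at 0. Obp99b was higher at 18°C at ZT3, ZT7 and ZT11, CG34134 was lower at 18°C at ZT19 and ZT23, tim-sc was higher at 18°C and Clk lower at every time point.

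Whether the cold difference depended on the light phase was tested across all genes as the difference at ZT15, ZT19 and ZT23 minus that at ZT3, ZT7 and ZT11. Of 8792 genes, 2 passed (0.0227%), and 614 had an unadjusted p under 0.05. Obp99b, another odorant-binding protein gene, had 497, 522 and 761 normalised reads at ZT3, ZT7 and ZT11 at 18°C, against 139.8, 211 and 164 at 25°C. In the dark phase it had 279.7, 426 and 463 at 18°C, against 364, 518 and 384 at 25°C. The temperatures were thus apart by day and close by night, with log2 changes of 1.78 in the light and -0.13 in the dark and a difference of -1.91 (SE 0.29, limma adjusted p = 0.00649).

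CG34134 had higher values at 18°C at each time point of the light phase, 270.1, 116 and 38.1 normalised reads against 174, 40.7 and 23.03 at 25°C. In the dark phase its values were lower, with 49.7, 96.5 and 205 at 18°C against 56.3, 356 and 523 at 25°C. Its log2 change was 0.94 in the light and -1.13 in the dark, a difference of -2.07 (SE 0.36, limma adjusted p = 0.0278). Neither gene passed without the ZT19 columns, where the adjusted p was 0.753 for both, or when only the 12 columns were fitted, where it was 0.806 for both. CG34134 did not pass without the 18°C ZT19 and ZT23 columns (adjusted p = 0.942). Without the 25°C ZT11 column alone the adjusted p was 0.0797 for Obp99b and 0.121 for CG34134, and without the 25°C ZT19 column it was 0.0675 and 0.222.

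The genes with the largest changes of one sign at all 6 time points were listed without regard to function. CG17298 (3R, 17108919 to 17109777) led those higher at 18°C, with 25.3 to 3159 (median 1071) normalised reads against 0.959 to 73.9 (median 10.9) at 25°C, or 5.21 ± 0.72 on the log2 scale (SE of the fit, adjusted p = 2e-05 by limma). It varied widely among the columns at 18°C, with 3159 at ZT3 and 25.3 at ZT23, so that its lowest columns there overlapped the highest at 25°C. The gene CG17298 overlaps another, and without strand its reads could not be assigned with certainty. CtsL3, named for cathepsin L, a lysosomal protease, had 21.3 to 49.4 (median 31.8) at 18°C and 3.39 to 11.02 (median 6.56) at 25°C, without overlap. The kinase gene Cdk2, which acts in the cell cycle, had 8.98 to 25.3 (median 13.3) at 18°C and 0 to 6.78 (median 2.32) at 25°C, and was not called without the ZT19 columns. CG33281, CG14572 and CG11159 changed by 2.97, 2.70 and 2.25, and 4 of 6 columns at 25°C had no more than 3 reads on each of them. Fbp2, Lsp1alpha, Fbp1, CG13063, Obp99a and tim-sc, described above, complete the 12 genes with the largest increases.

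Of the 12 genes with the largest decreases, CG9377 (2L, 13359901 to 13361527) had 2.24 to 14.9 (median 10.1) normalised reads at 18°C and 29.7 to 81.5 (median 58.3) at 25°C, or -2.75 ± 0.33 on the log2 scale (SE of the fit, adjusted p = 3.36e-06 by limma). The more abundant phu had 31.96 to 348 (median 105) at 18°C and 305 to 657 (median 481) at 25°C, with a small overlap, and CG7607 had 16.1 to 33.2 (median 26.3) at 18°C and 50.003 to 107 (median 77.96) at 25°C, with none. These correspond to -1.96 (limma adjusted p = 0.000256) and -1.55 (limma adjusted p = 6.51e-06). CG40298 and CG40498 changed by -1.56 and -2.12. CG14221, CG34240, Schip1, CG17233, CG6665 and Or43b, an odorant receptor gene, changed by -1.84, -1.82, -1.67, -1.59, -1.56 and -1.55, with medians of 2.21 to 6.14 normalised reads at 18°C, and the last of the 12 was Clk. The call of Or43b was lost in 13 of the alternatives, edgeR among them. On the small chromosome 4, 1 of 65 genes tested was called higher and 5 lower.

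The genes called at 18°C were also read at 29°C, where the difference is measured against the same 25°C columns. Of the 710 genes higher at 18°C, 69 were called lower at 29°C, 166 were called higher and 475 were not called. Of the 468 lower at 18°C, 72 were called higher at 29°C, 57 lower and 339 not. The share of all tested genes called at 29°C is not given here, so these counts have no background to be read against. The 25°C columns also enter both differences. CG9377 and Capa belonged to those that were lower at 18°C and higher at 29°C, at 1.79 and 0.78, and CG13063, Crys and nrv2, which encodes a subunit of the sodium pump, to those that were higher at 18°C and lower at 29°C, at -2.69, -1.57 and -0.77. Gad1 and Cyt-c-p were lower at both temperatures, at -0.97 and -1.004 at 29°C.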

How the data were processed

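RNA from heads was sequenced at transcript 3' ends, in 36 labelled libraries. The deposited table gives 1 value of signal per transcript and column, which the authors scaled between 18 columns. Per the labels, the processing notes list Bowtie2, TopHat, Cufflinks and the build dm3, and the role of each, the use of strand and the way 2 libraries became 1 column are not given in the sources used here. Every value was a whole multiple of 1 step per column within 0.01, so whole reads were recovered. The 21081 transcripts were reduced to 14011 entries, 1 per gene with tim-sc kept apart, and 13536 were named from RefSeq (Release 6). At 100 reads or more, 96 genes shared a read profile with another, and 4066 overlapped another gene.

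The filter filterByExpr of edgeR took each column as its own group, so enough reads in 1 column let a gene pass. Genes that passed were tested with limma 3.58.1 in R 4.3.3 on log2(signal + 1) over all 18 columns, with temperature and time point as factors, 2-sided, at a Benjamini-Hochberg adjusted p under 0.05. A log2 change is on this scale, which understates changes of low genes. The count tests edgeR 4.0.16 and DESeq2 1.42.0 on the recovered reads, other scalings, pseudocounts, filters and columns were alternatives. Tests were checked on simulated data. Genes named were the 12 largest increases and the 12 largest decreases of one sign at all 6 time points with a mean of 10 reads, up to 4 called genes of each of 43 lists, 9 clock genes and the genes with a light phase difference. Genes named to describe a list outside this rule were chosen after their values were seen. The members and lists were chosen with earlier results of these data known, and entries that matched another gene by an older symbol were removed after a look at the lists. Time points served as units, since columns carry no replicate. Depth per column is given above.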

Additional observations from a re-analysis of the deposited data

Results flagged for a closer look

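In 46 checks of the 6 columns of a temperature, 6 found 1 column far from the rest. For independent checks of 6 repeats, chance would give about 1 of 20, or 2.3 in all. These columns differ in time of day and several checks share genes or a column, so the 6 cannot be weighed against 2.3. At 18°C the share of mitochondrially encoded reads at ZT23 was 0.974%, while the remaining columns at 18°C had 0.860 to 0.897%. At 25°C the 10 most abundant genes took 23.4% of the reads at ZT19, against 16.5 to 17.9% in the others. Markers of neurons summed to 322 normalised reads at 25°C and ZT3, against 161 to 197 in the others, and fat body markers to 274531 at 25°C and ZT19, against 117999 to 160388. At 25°C and ZT7 the midgut markers summed to 6243, against 18.2 to 27.9, and flight muscle markers to 6957, against 2904 to 3222. In that column 43 genes had at least 100 normalised reads and over 10 times the highest other column of the comparison, and none of them was called. They were picked for 1 high column, which widens their spread, so this cannot show that the column left other calls unaffected. Without this column 942 genes were called, and 810 without it and 29°C at ZT19, against 1178 with all columns.

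The difference between 18°C and 25°C depended on the light phase for 2 genes, at -1.91 for Obp99b and -2.07 for CG34134 (dark minus light, log2).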

How the results depend on the processing

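Of 169 named genes, 159 were called, 87 of them in each of 24 settings. Against 1178 genes called, 684 were called without the ZT19 columns, 428 higher and 256 lower at 18°C, and 636 of the 684 were among the 1178. Scaling by library size gave 450 higher and 856 lower. Those lower numbered 292 with only the 12 columns and 296 without the 18°C ZT19 and ZT23 columns. Leaving out 1 column gave 891 to 1092 genes, 565 to 695 higher and 326 to 442 lower. Of the 1178, edgeR also called 1068 and DESeq2 1021, where DESeq2 gave no adjusted p for 2898 genes. The light phase count of 2 became 0 with a pseudocount of 0.1, without a filter, with only the 12 columns, without the 25°C ZT7 and 29°C ZT19 columns and without ZT19, 12 in DESeq2, and 0 to 8 when 1 column was left out.

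Signs turned for genes that were not called. Without the 18°C ZT19 and ZT23 columns, tim was at 0.15, vri at 0.32, Pdp1 at -0.23 and CG34134 at 0.65. Without the ZT19 columns CG34134 was at 0.26. Leaving out 1 column gave -0.18 (without 18°C ZT23) to 0.23 for Pdp1, -0.43 to 0.26 (without 18°C ZT19) for CG34134 and -2.08 to 0.73 (without 25°C ZT7) for Jon65Aiii, which was at 0.63 without the 25°C ZT7 and 29°C ZT19 columns. The cause was not tested. Columns were matched by time point, and 1119 genes were called without that match. By replicate number no paired analysis was possible because the columns carry none. Depth of 736544 reads at 18°C and ZT23 limits genes with few reads.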
